A study of Mus musculus with 18 samples.

Results

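Integrins and laminins were followed through 37 of the 55450 genes in the deposited tables, chosen by symbol alone: 18 integrin alpha subunits, 8 integrin beta subunits, 5 laminin alpha chains, 3 laminin beta chains and 3 laminin gamma chains. From textbook knowledge of where each gene is best known, 10 were set down as epithelial, 9 as leukocyte, 12 as mesenchymal and 6 as widely expressed. The members and classes were set with earlier results of these data known. RNA was sequenced from 18 spontaneous mammary tumors of mice, which the series' design gives as 1 per animal. All of the genotypes included MMTV-Cre, a Cre recombinase under the mouse mammary tumor virus promoter that is active mainly in mammary epithelium, and 1 H1047R allele of the PI3-kinase catalytic subunit gene Pik3ca, spelled Pikca in the labels. The labels divided the tumors into 14 Cbfb(het), 3 Cbfb(wt) and 1 Cbfb(homo). Cbfb encodes CBF beta, the partner subunit that strengthens the DNA binding of the RUNX transcription factors. What was done to the Cbfb gene is not in the labels, and neither are age, sex, litter or batch, so the replicate numbers used here (accession order within a group) only name tumors.

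Integrins are cell surface receptors made of 1 alpha and 1 beta subunit, and the pair decides the ligand: laminin, collagen, fibronectin, or a counter-receptor on another cell. Laminins are secreted cross-shaped trimers of 1 alpha, 1 beta and 1 gamma chain and are the scaffold of the basement membrane. In the mammary gland the basal cells rest on this sheet: the alpha 6 beta 4 integrin (Itga6, Itgb4) holds hemidesmosomes to the epithelial anchoring laminin, which holds Lama3 and Lamb3, beta 1 integrins read laminin and collagen, and leukocytes carry their own beta 2 and beta 7 integrins.

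The libraries held 33210239 to 40974166 rounded expected counts (RSEM's estimate of the reads of each gene). Levels are given as TPM, which counts transcripts per length within a library and can be set side by side between genes; log2 CPM, the log2 of the count's share of its library with trimmed-mean scaling, is used to compare tumors. A single gene in bulk RNA can be low because fewer cells of a type were present or because each cell held less of the RNA, and these cannot be told apart here. The labelled tissue was checked against epithelial markers. Epcam, an epithelial adhesion protein, was at 331 to 666 TPM in 13 tumors and lower in Cbfb(wt) 2 (5.6 TPM), Cbfb(het) 10 (26.4 TPM), Cbfb(het) 14 (27.2 TPM), Cbfb(het) 1 (75.1 TPM) and Cbfb(het) 12 (133 TPM). The mean log2 CPM of 15 epithelial markers put the same 5 tumors at 2.39 to 5.50 and the other 13 at 7.36 to 8.42, and the gap between them was 30.9% of the whole range. Pdgfra, a fibroblast receptor, was at 59.6 to 195 TPM in those 5 tumors and at 1.33 to 14.1 TPM in the other 13. Ptprc, the pan-leukocyte CD45, ran from 4.0 TPM in Cbfb(het) 8 to 49.6 TPM in Cbfb(het) 12. The libraries of Cbfb(het) 10 and Cbfb(het) 14 were nearly alike: their chi-square per degree of freedom over 16196 genes was 4.18, against 85.9 for the next closest pair and a median of 596 over all 153 pairs. They were kept as 2 tumors, as the series' design has them, since 4.18 is above sampling noise. That value does not tell 2 tumors from 2 samples of 1 tumor, and results are given with them as 1 library where a call changes.

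Cbfb itself was read first, as a check on the labels. It was at 5.75 ± 0.63 log2 CPM (SD, n = 14) in Cbfb(het) tumors, at 5.13 ± 0.82 (SD, n = 3) in Cbfb(wt) tumors and at 4.19 in the Cbfb(homo) tumor. The groups overlapped, and the Cbfb(het) tumors were higher by 0.61 on the log2 scale (two-sided exact permutation test over 680 splits, p = 0.154, smallest possible 0.00147). The deposited gene totals do not show which allele the reads came from.

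Promoters were looked at because CBF beta acts with RUNX proteins, whose core site is TGTGGT. RefSeq's table for GRCm38.p6 had promoter entries for 23 of the 37 genes, in 26 windows of 250 bases before a transcript start, and 14 genes had none, among them Itga6, Itga7, Itgad, Itgae, Itgal, Itgb2, Itgb3, Itgb4, Lama1, Lama3, Lama4, Lamc1 and Lamc3. TGTGGT, read on both strands, was in 2 of the 26 windows (Itga3 and Itga4), against 14% of 32851 RefSeq promoters. The GC box core GGGCGG was in 9 windows of 8 genes (Itga3, Itga4, Itga5, Itgam, Itgb1, Itgb5, Lama5 and Lamb1), against 32.7% of all promoters. The AP-1 site TGANTCA was in 1 window (Itgax), against 6.75%, and TATAAA was in 0 windows, against 12.4%. None of the 4 motifs contains another, and a match only describes the sequence. The windows with TGTGGT are shown because they bear on the factor under study, with its 6 bases (or their complement, ACCACA) in capitals. That of Itga4, chr2:79255176-79255425 on the plus strand, holds it 60 bases before the start, and that of Itga3, chr11:95069199-95069448 on the minus strand, holds it 73 bases before a second RefSeq start inside the gene.
Itga4: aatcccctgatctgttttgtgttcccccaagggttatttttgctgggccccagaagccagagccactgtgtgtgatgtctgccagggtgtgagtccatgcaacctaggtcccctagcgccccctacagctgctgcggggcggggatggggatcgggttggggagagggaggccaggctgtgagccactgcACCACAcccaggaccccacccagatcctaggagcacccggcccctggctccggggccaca
Itga3: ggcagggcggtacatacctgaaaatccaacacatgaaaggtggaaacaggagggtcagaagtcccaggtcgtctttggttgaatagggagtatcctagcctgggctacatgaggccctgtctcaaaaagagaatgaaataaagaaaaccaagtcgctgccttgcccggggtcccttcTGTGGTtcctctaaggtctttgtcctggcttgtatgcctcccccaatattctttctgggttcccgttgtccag
Lamb1 (chr12:31265043-31265233, plus strand) and Itga5 (chr15:103366792-103367041, minus strand) are shown as a laminin and an integrin that were high in the same tumors, with each GGGCGG (or CCGCCC) in capitals. For Lamb1 only the 191 bases of the window outside annotated exons are printed, and they end 59 bases before the start.
Lamb1: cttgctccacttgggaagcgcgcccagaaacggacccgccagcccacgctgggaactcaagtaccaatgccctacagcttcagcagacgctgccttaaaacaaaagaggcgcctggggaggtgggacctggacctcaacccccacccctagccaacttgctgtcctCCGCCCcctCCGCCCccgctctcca
Itga5: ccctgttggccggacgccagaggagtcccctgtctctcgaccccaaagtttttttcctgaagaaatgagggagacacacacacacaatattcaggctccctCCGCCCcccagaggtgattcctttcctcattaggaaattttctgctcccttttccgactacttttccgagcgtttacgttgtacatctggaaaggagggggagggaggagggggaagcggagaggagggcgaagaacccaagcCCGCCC
Neither of these 2 windows holds TGTGGT.

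Across the 18 tumors every gene of the family was measurable. All 37 had at least 10 counts in every tumor and passed the filter on low counts, and 24 of them reached 1 TPM in all 18 tumors: 8 of 10 epithelial, 5 of 9 leukocyte, 6 of 12 mesenchymal and 5 of 6 widely expressed genes. The other 13 reached 1 TPM in some tumors only. By median TPM the order of the members shown began with Itgb1, Itga6, Itgb5, Itgav, Lamb3, Lama5, Itgb4, Lamc1 and Lamb2, and it ended with Itgad and Lamc3. The SD of log2 CPM over the 18 tumors ran from 0.38 in Lamb2 and 0.41 in Itgal to 1.92 in Lamc3 and 2.01 in Itga7. Cbfb(het) 12 held the highest TPM of 12 genes and Cbfb(het) 1 that of 6.

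**Figure D1:**
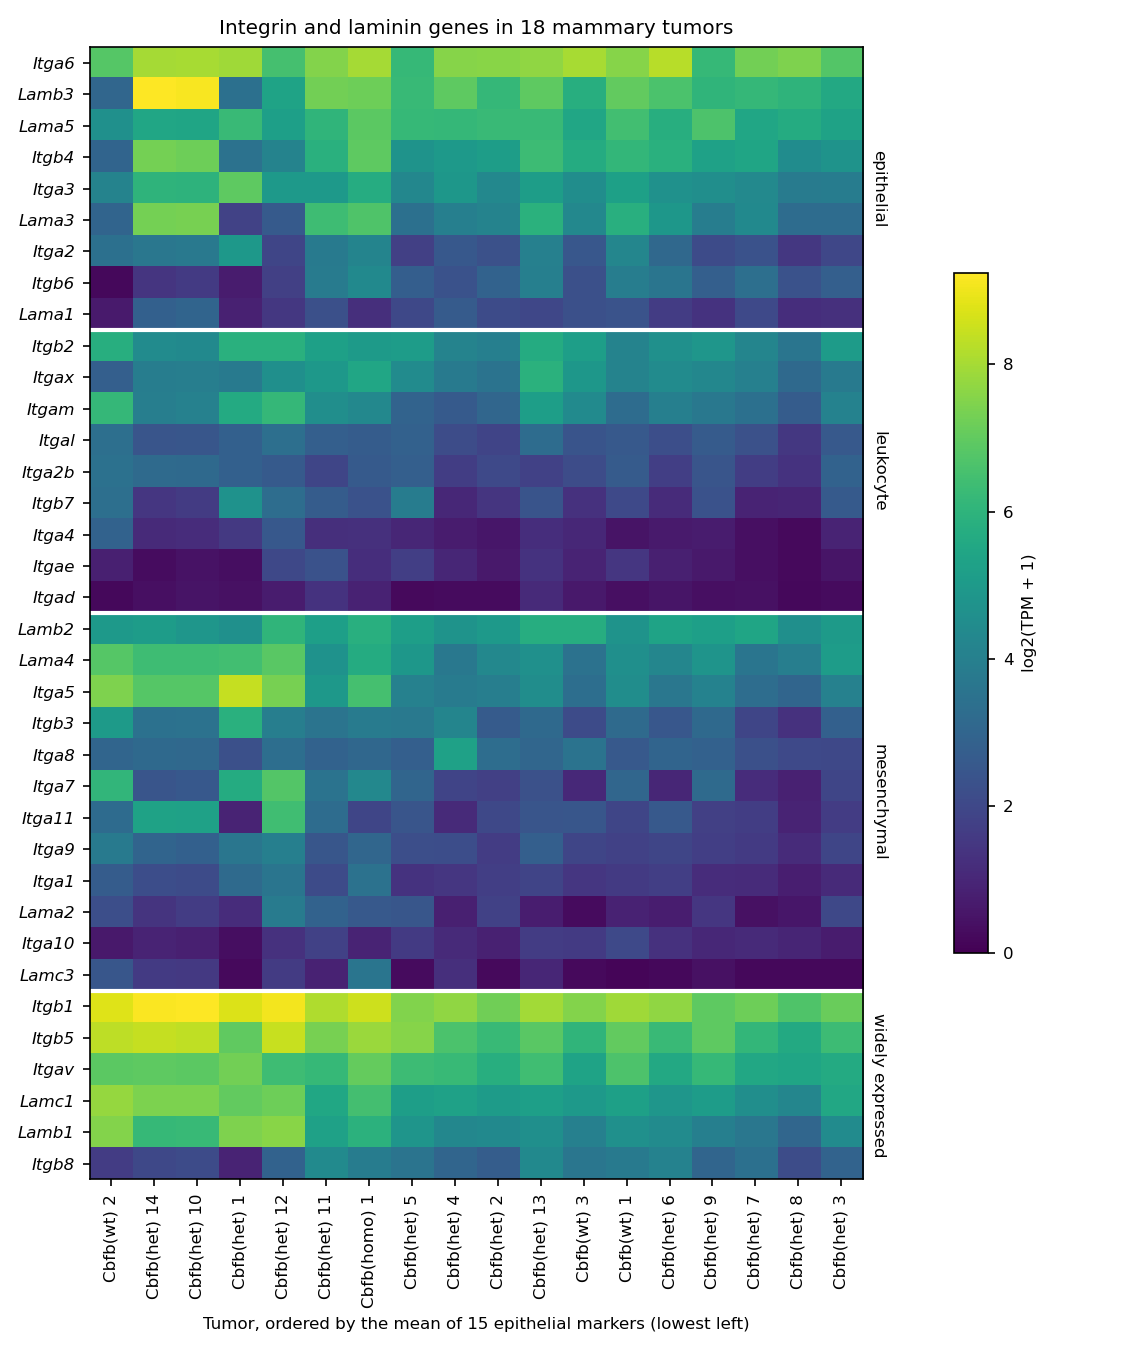
Levels of integrin and laminin genes as log2(TPM + 1), 1 row per gene within its class (highest median TPM on top) and 1 column per tumor, ordered by the mean log2 CPM of 15 epithelial markers with the lowest at the left. Lamb3, Itgb4 and Lama3 are bright in Cbfb(het) 10 and 14, while Itga5, Lama4, Lamb1 and Lamc1 are bright in the 5 tumors at the left.

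The chains of the epithelial anchoring laminin were uneven between tumors. Lamb3, its beta chain (chr1:193207699-193343878), was at 9.75 to 602 TPM in the Cbfb(het) tumors (median 71.6), at 129, 7.22 and 54.6 TPM in Cbfb(wt) 1, 2 and 3 and at 144 TPM in the Cbfb(homo) tumor. Cbfb(het) 14 and 10 were highest, at 602 and 567 TPM, while Cbfb(wt) 2 and Cbfb(het) 1 were lowest. Lama3, its alpha chain, was at 2.56 to 162 TPM in the Cbfb(het) tumors (median 15.9), at 55.2, 6.82 and 18.6 TPM in the Cbfb(wt) tumors and at 102 TPM in the Cbfb(homo) tumor. For both chains the Cbfb(wt) values lay among the Cbfb(het) values, except that Lamb3 was lower in Cbfb(wt) 2 than in any Cbfb(het) tumor.

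Lamb3 and Lama3 were not present in equal amounts: Lamb3 was above Lama3 in every tumor, by 1.06 to 8.07 times in TPM, and the lowest ratio was in Cbfb(wt) 2. Itgb4, the beta subunit of hemidesmosomes, followed a similar order. It was at 10.1 to 156 TPM in the Cbfb(het) tumors (median 36.3), at 67.7, 6.84 and 50.8 TPM in the Cbfb(wt) tumors and at 122 TPM in the Cbfb(homo) tumor. Cbfb(het) 14, Cbfb(het) 10 and the Cbfb(homo) tumor were the highest, and Cbfb(wt) 2 the lowest. Itga6, its alpha partner, was far more even: 71.3 to 306 TPM in the Cbfb(het) tumors (median 185), 186, 111 and 259 TPM in the Cbfb(wt) tumors and 255 TPM in the Cbfb(homo) tumor. The TPM ratio of Itga6 to Itgb4 therefore ran from 1.64 in Cbfb(het) 14 to 16.3 in Cbfb(wt) 2 and 23.6 in Cbfb(het) 1, with a median of 3.94.

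**Figure D2:**
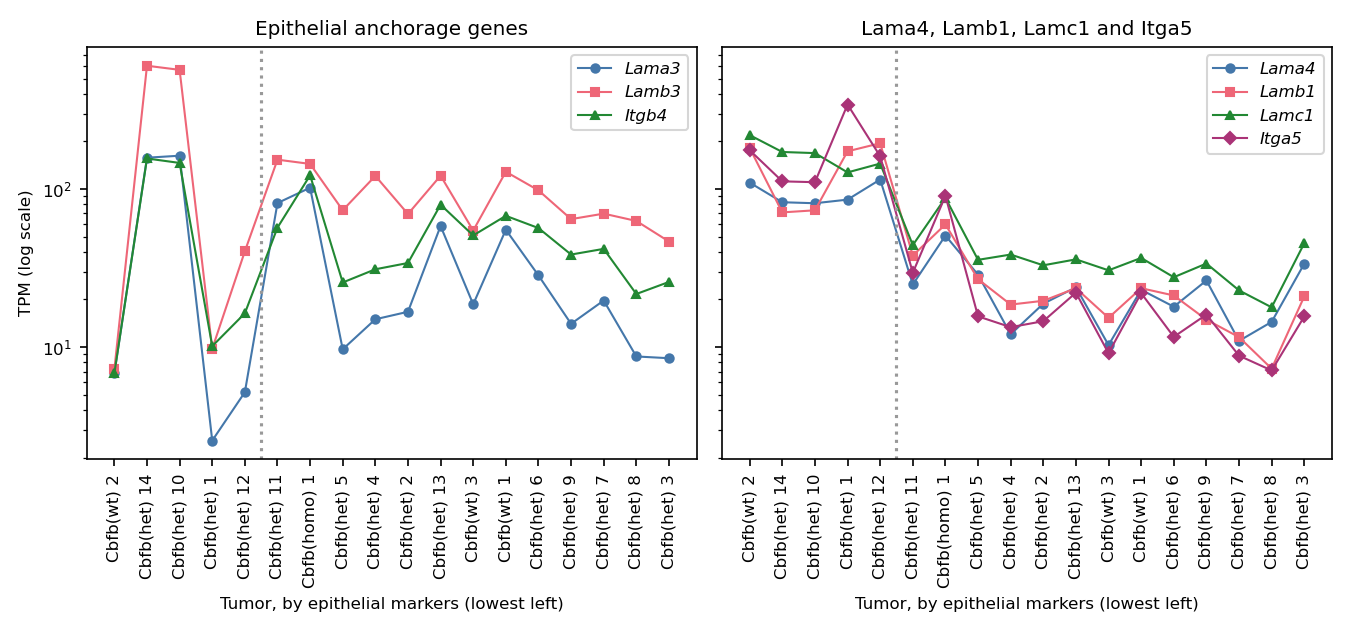
TPM on a log scale of the epithelial anchorage genes Lama3, Lamb3 and Itgb4 (left) and of Lama4, Lamb1, Lamc1 and Itga5 (right), 1 point per tumor, ordered by the mean of 15 epithelial markers with the lowest at the left; the dotted line marks the gap between 5 and 13 tumors and the lines only join the points of a gene. Lama3, Lamb3 and Itgb4 are low in Cbfb(wt) 2 and Cbfb(het) 1 and high in Cbfb(het) 14 and 10, which lie on the same side of the gap.

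Among the other epithelial genes, Lama5, the alpha chain of most adult epithelia, was at 35.9 to 100.02 TPM in the Cbfb(het) tumors (median 59.9), at 84.9, 23.9 and 42.9 TPM in the Cbfb(wt) tumors and at 121 TPM in the Cbfb(homo) tumor, the highest of 18. Itgb6, the epithelial partner of alpha V that activates latent TGF-beta, was at 0.63 to 14.8 TPM in the Cbfb(het) tumors (median 5.88), at 14.1, 0.14 and 3.79 TPM in the Cbfb(wt) tumors and at 20.01 TPM in the Cbfb(homo) tumor. Its 5 lowest values were those of the 5 tumors with the lowest epithelial markers, all at or below 2.4 TPM. Itga3, a laminin receptor subunit paired with beta 1, had a median of 26.7 TPM and its highest value, 122 TPM, in Cbfb(het) 1. Itga2, a collagen and laminin receptor subunit, had a median of 6.29 TPM and was highest in the same tumor at 29.6 TPM. Lama1, an alpha chain of early basement membranes, stayed between 0.6 and 6.82 TPM.

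The laminin makeup differed between tumors by which chain led. Lama5 was the alpha chain with the highest TPM in 12 tumors, Lama4 in Cbfb(het) 1, Cbfb(wt) 2 and Cbfb(het) 12, and Lama3 in Cbfb(het) 10, 11 and 14. Lamb3 was the leading beta chain in 15 tumors and Lamb1 in the other 3, which were again Cbfb(het) 1, Cbfb(wt) 2 and Cbfb(het) 12. Lamb1 made up 83.6% of beta chain TPM in Cbfb(het) 1 and 7.84% in Cbfb(het) 8, and Lama4 ran from 11.7% to 75.8% of alpha chain TPM. The integrins shifted in the same 3 tumors: Itga5 was the leading alpha subunit there, Itga6 led in 14 tumors and Itgav in Cbfb(het) 5, while Itgb1 led the beta subunits in 16 tumors and Itgb5 in Cbfb(het) 5 and 9.

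**Figure D3:**
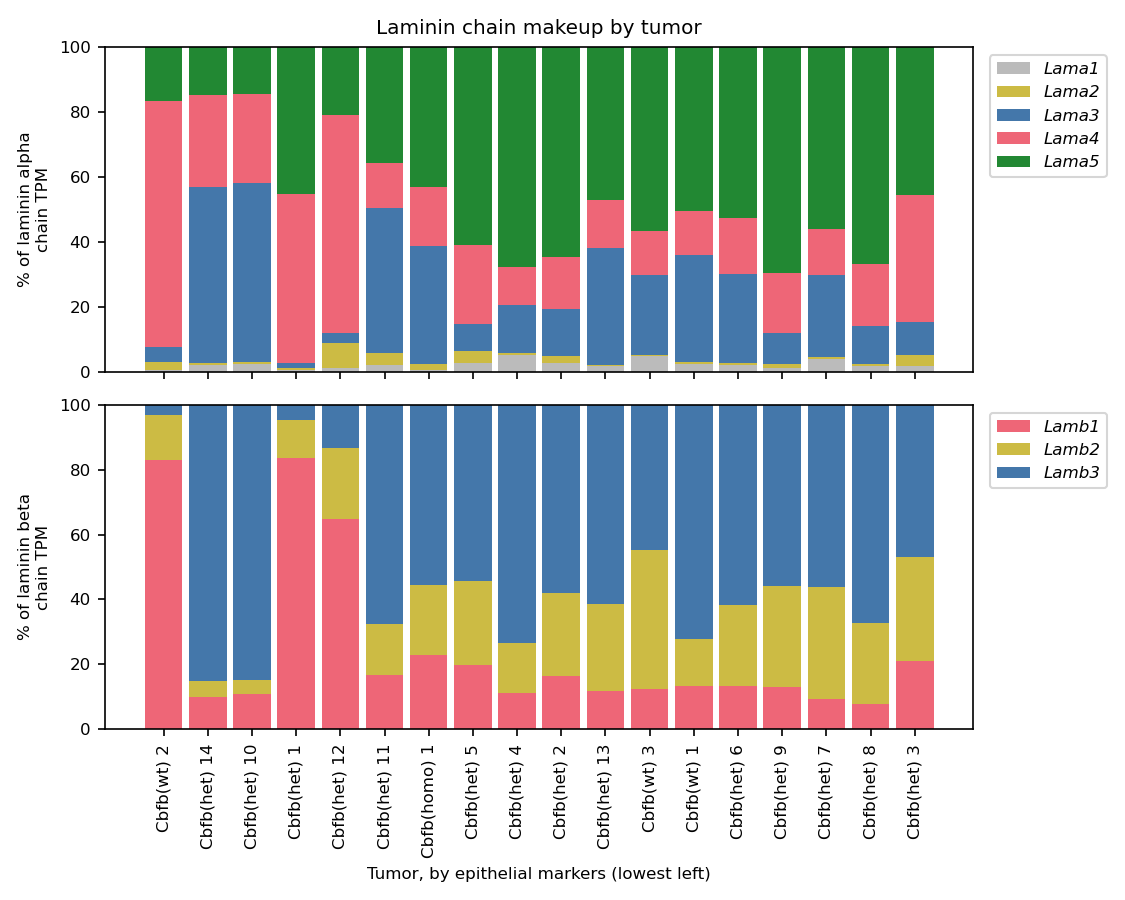
Share of each laminin chain in the summed TPM of the alpha and of the beta chains (stacked bars, % of chain TPM), 1 bar per tumor, ordered by the mean of 15 epithelial markers with the lowest at the left. Lama4 and Lamb1 fill most of the bars of Cbfb(wt) 2 and Cbfb(het) 12, and Lama3 and Lamb3 those of Cbfb(het) 14 and 10.

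The mesenchymal genes were led by fibronectin and vessel-type members. Itga5, the fibronectin receptor subunit, was at 7.11 to 342 TPM in the Cbfb(het) tumors (median 15.8), at 21.9, 176 and 9.14 TPM in the Cbfb(wt) tumors and at 90.6 TPM in the Cbfb(homo) tumor. The 5 tumors of low epithelial markers were all above 110 TPM (110.41 TPM in Cbfb(het) 10), the Cbfb(homo) tumor came next and the other 12 were at or below 29.5 TPM. Lama4, the alpha chain of vessel walls, was at 10.9 to 115 TPM in the Cbfb(het) tumors (median 25.6), at 23.0, 110 and 10.3 TPM in the Cbfb(wt) tumors and at 50.7 TPM in the Cbfb(homo) tumor. Its 5 highest values, from 81.3 to 115 TPM, were in those 5 tumors too. Lamb2, a beta chain of vessels and muscle, had the smallest SD of the family and stayed between 23.1 and 65.3 TPM.

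Itga7, the laminin receptor subunit of muscle, was the most variable gene. It was at 0.81 to 108 TPM in the Cbfb(het) tumors (median 4.13), at 7.22, 66.3 and 1.09 TPM in the Cbfb(wt) tumors and at 19.0 TPM in the Cbfb(homo) tumor. The high values were in Cbfb(het) 12 (108 TPM), Cbfb(wt) 2 (66.3 TPM) and Cbfb(het) 1 (50.2 TPM). The mean log2 CPM of 8 skeletal muscle markers was -1.76, 0.61 and 5.59 in these 3 tumors and highest in Cbfb(het) 5 (8.51), where Itga7 was at 7.17 TPM. Their summed TPM was 3.4 to 4988 in the Cbfb(het) tumors, 6.8 to 34.8 in the Cbfb(wt) tumors and 203 in the Cbfb(homo) tumor, with Myh4, Myh1, Ckm and Myl1 listed at 0 in some tumors. Itga11, a collagen receptor subunit of fibroblasts, was at 0.88 to 83.8 TPM in the Cbfb(het) tumors (median 3.67), at 2.83, 8.36 and 4.59 TPM in the Cbfb(wt) tumors and at 2.83 TPM in the Cbfb(homo) tumor. Only Cbfb(het) 12, 14 and 10 were above 10 TPM for it, at 83.8, 39.3 and 38.05 TPM, while Cbfb(het) 1, also low in epithelial markers, was at 0.90 TPM.

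Lamc3, a gamma chain of few tissues, was at 0.14 to 2.02 TPM in the Cbfb(het) tumors (median 0.27), at 0.08, 4.61 and 0.19 TPM in the Cbfb(wt) tumors and at 11.1 TPM in the Cbfb(homo) tumor. Lama2, the alpha chain of muscle and nerve, was at 0.35 to 13.5 TPM in the Cbfb(het) tumors (median 1.71), at 0.86, 3.6 and 0.22 TPM in the Cbfb(wt) tumors and at 4.92 TPM in the Cbfb(homo) tumor. Both were thus low in most tumors, with single tumors well above the rest. Itga8, a nephronectin receptor subunit, was at 37.6 TPM in Cbfb(het) 4 and at most 10.5 TPM in the other 17. Itgb3, a partner of alpha V, ran from 1.48 TPM to 56.6 TPM in Cbfb(het) 1. The tenascin receptor subunit Itga9 ran from 1.21 to 14.9 TPM, and the collagen receptor subunits Itga1 and Itga10 from 0.72 to 11.1 TPM and from 0.27 to 3.09 TPM.

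The widely expressed genes included the most abundant of the family. Itgb1, the beta subunit of most matrix receptors, was at 101 to 596 TPM in the Cbfb(het) tumors (median 209), at 238, 443 and 184 TPM in the Cbfb(wt) tumors and at 374 TPM in the Cbfb(homo) tumor. Its 5 highest values were in the 5 tumors of low epithelial markers. Itgb5, a vitronectin receptor subunit, was at 47.6 to 354 TPM in the Cbfb(het) tumors (median 119), at 129, 318 and 65.3 TPM in the Cbfb(wt) tumors and at 227 TPM in the Cbfb(homo) tumor. Its partner Itgav, alpha V, was at 41.95 to 154 TPM in the Cbfb(het) tumors (median 73.2), at 101, 118 and 40.3 TPM in the Cbfb(wt) tumors and at 131 TPM in the Cbfb(homo) tumor, a narrower range than that of Itgb5. Lamc1, the common gamma chain, was at 17.8 to 171 TPM in the Cbfb(het) tumors (median 37.2), at 36.6, 219 and 30.6 TPM in the Cbfb(wt) tumors and at 87.8 TPM in the Cbfb(homo) tumor. Lamb1, the common beta chain, was at 7.3 to 195 TPM with a median of 23.6 TPM over the 18 tumors. Both were highest in the 5 tumors of low epithelial markers, whereas Itgb8, another alpha V partner, was lowest in Cbfb(het) 1 (0.91 TPM) and Cbfb(wt) 2 (2.13 TPM) and reached 20.2 TPM in Cbfb(het) 11.

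Among the leukocyte genes, Itgb2 (CD18), the shared beta subunit of the beta 2 integrins, was at 11.2 to 57.3 TPM in the Cbfb(het) tumors (median 25.9), at 16.5, 54.0 and 35.5 TPM in the Cbfb(wt) tumors and at 32.0 TPM in the Cbfb(homo) tumor. Itgam (CD11b), its myeloid alpha partner, was at 5.06 to 70.5 TPM in the Cbfb(het) tumors (median 14.7), at 8.66, 69.7 and 20.7 TPM in the Cbfb(wt) tumors and at 18.7 TPM in the Cbfb(homo) tumor. Both were highest in Cbfb(het) 12, with Cbfb(wt) 2 and Cbfb(het) 1 close by. Itgax (CD11c), the partner in dendritic cells and some macrophages, was at 7.9 to 57.9 TPM in the Cbfb(het) tumors (median 14.9), at 16.4, 5.92 and 28.7 TPM in the Cbfb(wt) tumors and at 42.7 TPM in the Cbfb(homo) tumor. Its order was different: Cbfb(wt) 2, second for Itgam, was the lowest for Itgax, and the TPM ratio of Itgam to Itgax was 11.8 there against a median of 0.711. That ratio was also above 3 in Cbfb(het) 1 (3.85) and Cbfb(het) 12 (3.06). Itgal, the alpha subunit of LFA-1, kept to 1.79 to 9.46 TPM, and Itgad, a rarer beta 2 partner, to 0.14 to 1.58 TPM.

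Itgb7, the lymphocyte homing beta subunit, was at 0.87 to 25.1 TPM in the Cbfb(het) tumors (median 3.02), at 3.1, 9.39 and 1.48 TPM in the Cbfb(wt) tumors and at 3.97 TPM in the Cbfb(homo) tumor. Cbfb(het) 1 (25.1 TPM) and Cbfb(het) 5 (13.8 TPM) were the high tumors. Its alpha partner Itga4, which binds VCAM-1, was at 6.51 TPM in Cbfb(wt) 2 and from 0.18 to 4.86 TPM elsewhere. Itgae (CD103), the E-cadherin receptor subunit, stayed between 0.19 and 3.99 TPM. Itga2b, the platelet fibrinogen receptor subunit, was at 1.53 to 9.95 TPM. The summed TPM of 8 platelet markers, Itga2b among them, was 14.2 to 157 in the Cbfb(het) tumors, 18.3 to 150 in the Cbfb(wt) tumors and 28.9 in the Cbfb(homo) tumor, with Gp9, Gp6, Clec1b and Treml1 listed at 0 in some tumors, and its part in the Itga2b level was not tested.

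Subunits that join into 1 receptor or 1 laminin were compared over the tumors, in 40 pairs, with Pearson r and Spearman rho of log2 CPM, permutation tests of 100000 resamples and Benjamini-Hochberg adjustment over the 40. A pair was called when both adjusted p were under 0.05. Where 1 gap took more than 33.3% of the range of a gene, only the larger run of tumors was used, which left Itga8 with 17 tumors, Itgax with 17 and Itga11 with 15. Of the 40 pairs 19 were called, all with positive r. Since the same 5 tumors stood apart for many of these genes, each pair was also computed within the 13 tumors of higher epithelial markers, where 9 pairs were called, 7 of them among the 19. The pairs were chosen with earlier results of these data known. Pairs of genes that are not partners were not computed, so these counts do not show that partners vary together more than other genes do.

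Lama3 and Lamb3 had r = 0.87 and rho = 0.85 (permutation p = 1e-05 and 4e-05, adjusted 0.0001 and 0.00032), and r = 0.79 without the 2 tumors farthest from the median. Within the 13 tumors r was 0.66 and rho 0.63 (adjusted permutation p = 0.048 and 0.0768), so this pair was not called there. The 1e-05 is the smallest p these permutations can give. Itga6 and Itgb4, the hemidesmosome integrin, had r = 0.51 and rho = 0.55 (adjusted permutation p = 0.0502 and 0.0372) and were not called. This pair lay at the threshold: it was called on log2(TPM + 1), with r = 0.53 and rho = 0.61 (adjusted permutation p = 0.0458 and 0.0169), and when no tumor was removed for a gap in any pair (adjusted 0.0482 and 0.0372).

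The vessel and common chains had the highest Pearson r of the pairs over 18 tumors. Lama4 had r = 0.96 and rho = 0.89 with Lamb1 (permutation p = 1e-05 for both, adjusted 0.0001 and 0.0002) and r = 0.95 and rho = 0.86 with Lamc1 (permutation p = 3e-05 for both, adjusted 0.000171 and 0.0003), and Lamb1 and Lamc1 had r = 0.92 and rho = 0.86. Without the 2 farthest tumors r stayed at 0.94, 0.94 and 0.90. Over the 12 higher-marker tumors left by the gap rule, r was 0.78, 0.54 and 0.58. None of the 3 pairs was called there, although the r of Lama4 and Lamb1 passed on its own (adjusted permutation p = 0.0189, against 0.0768 for its rho of 0.65). Lama5, by contrast, had r of -0.22, -0.17 and -0.01 with Lamb1, Lamc1 and Lamb2 over 18 tumors, but r = 0.65 and rho = 0.74 with Lamc1 within the 13 (adjusted permutation p = 0.048 and 0.0327), where that pair was called.

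For the integrins, Itgav and Itgb1 had r = 0.88 and rho = 0.93 (permutation p = 1e-05 for both, adjusted 0.0001 and 0.0002), and kept r = 0.88 and rho = 0.89 within the 13 tumors. Itga5 and Itgb1 had r = 0.88 and rho = 0.78 over 18 tumors, but r = 0.35 within the 12 higher-marker tumors left by the gap rule, where the pair was not called. Itgb1 was also called with Itga1, Itga3, Itga4, Itga7 and Itga9 over 18 tumors (Itga3 not so with Cbfb(het) 10 and 14 as 1 library, which left 18 called pairs), and in the higher-marker tumors with Itga1, Itga2 and Itga3. Alpha V was called with Itgb3 (r = 0.73) and Itgb5 (r = 0.71), whereas its r with Itgb6 and Itgb8 was -0.53 for both, uncalled because the rank correlations of -0.40 and -0.37 did not pass. Within the 13 tumors the r of alpha V was 0.40 with Itgb6 and 0.46 with Itgb8. Its pairs with Itgb3 (r = 0.65) and Itgb5 (r = 0.61) were not called there (adjusted permutation p of rho 0.0768 for both).

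Of the beta 2 pairs, Itgal with Itgb2 (r = 0.76, rho = 0.79) and Itgam with Itgb2 (r = 0.77, rho = 0.73) were called over 18 tumors. Only the Itgal pair was called within the 13 (r = 0.75, rho = 0.77), where Itgam reached r = 0.69 and rho = 0.60 (adjusted permutation p = 0.048 and 0.0857). Itgax with Itgb2 (r = 0.37, rho = 0.30 over 17 tumors) and Itgad with Itgb2 (r = 0.15, rho = 0.08) were not called. Itga4 and Itgb7 were called (r = 0.70, rho = 0.72), and Itgae and Itgb7 were not (r = 0.19). Within the 13 tumors Itga4 and Itgb7 had r = 0.635 and rho = 0.69 (adjusted permutation p = 0.0552 and 0.0452) and were not called.

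Each of the 37 genes was next set against the mean log2 CPM of 3 marker lists of 15 genes each (epithelial, leukocyte and mesenchymal), as 111 relations tested the same way. The lists were chosen with earlier results of these data known. The share of all tested genes that would be called against them was not computed, so the counts of called relations describe the members only. With the leukocyte list, 5 of the 9 leukocyte genes had called positive relations: Itgb7 (r = 0.88, rho = 0.87), Itgb2 (r = 0.88, rho = 0.89), Itgal (r = 0.81, rho = 0.83), Itga4 (r = 0.81, rho = 0.77) and Itgam (r = 0.65, rho = 0.59). The adjusted permutation p of the first 4 were at most 0.0015 and those of Itgam were 0.00941 and 0.0297. All of these except Itgam were also called within the 13 tumors, at r of 0.74 to 0.86. Itgax (r = 0.17 over 17 tumors), Itgae (r = 0.27), Itga2b (r = 0.27) and Itgad (r = -0.03) were not called. Called positive relations with this list were not limited to leukocyte genes. They included 6 of the 12 mesenchymal genes (Itga5, Itga7, Itga9, Itgb3, Lama2 and Lama4) and the widely expressed Lamb1. Their r ran from 0.535 (Lama4) to 0.75 (Itga7), and 0 of them were called within the 13 tumors. Of the 10 epithelial genes, 5 had called negative relations with the leukocyte list (Lama1, Itga6, Itgb4, Lamb3 and Lama3, r from -0.70 to -0.54). On log2(TPM + 1) all 5 calls were lost, with r from -0.51 (Lamb3) to -0.35 (Lama3), and over all 111 relations the called ones went from 30 positive and 20 negative to 35 positive and 10 negative. Of the same 10 genes, 0 were called within the 13 tumors, where Itga6 had r = -0.71 (adjusted permutation p = 0.0501 and 0.139).

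**Figure D4:**
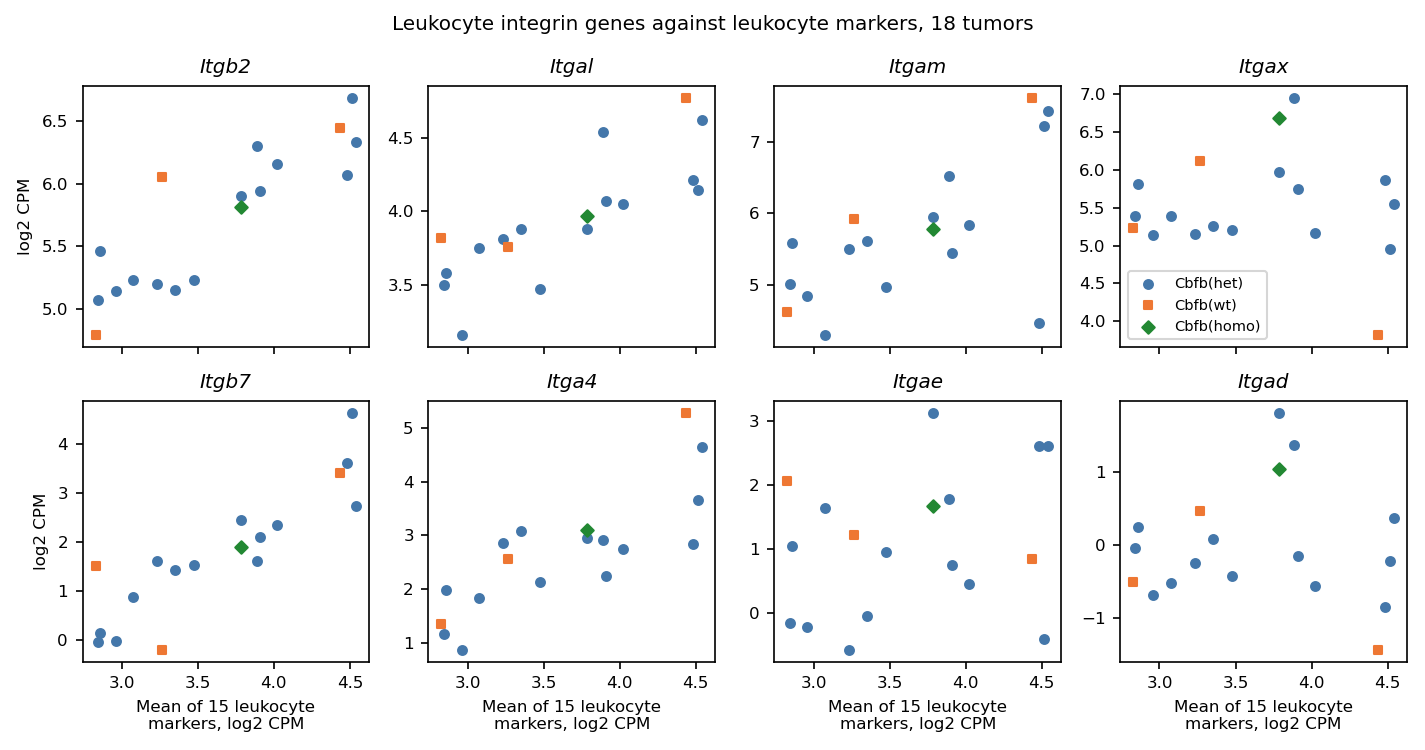
Level of 8 leukocyte integrin genes (y axes, log2 CPM, 1 panel per gene) against the mean log2 CPM of 15 leukocyte markers (x axes), 1 point per tumor and a symbol per Cbfb label. Itgb2, Itgal, Itgb7 and Itga4 climb with the markers, while Itgax is lowest in Cbfb(wt) 2, at the right of its panel.

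With the mesenchymal list, 8 of the 12 mesenchymal and 5 of the 6 widely expressed genes had called positive relations over 18 tumors. The highest were Lama4 (r = 0.92), Lamb1 (r = 0.90), Itga5 (r = 0.89), Itgb5 (r = 0.89), Lamc1 (r = 0.86) and Itga9 (r = 0.86). Itgb5 (r = 0.75, rho = 0.80), Lamb1 (r = 0.79, rho = 0.84), Lama2 (r = 0.97, rho = 0.92) and Itgb7 (r = 0.85, rho = 0.88) were the genes also called among the higher-marker tumors. One of the 8, Lamc3 (r = 0.59, rho = 0.59), was not called with Cbfb(het) 10 and 14 as 1 library (adjusted permutation p = 0.0423 and 0.0656). Itga8 (r = 0.07 over 17 tumors) and Lamb2 (r = -0.24) were not called. Itgb8, the remaining widely expressed gene, went the other way, with r = -0.68 and rho = -0.53 (adjusted permutation p = 0.00584 and 0.0533), not called. Its r was 0.02 within the 13 tumors. Itga11 had r = 0.11 over the 15 tumors left by the gap rule, without its 3 highest, Cbfb(het) 10, 12 and 14. Over all 18 tumors it had r = 0.61 and rho = 0.51 (adjusted permutation p = 0.014 and 0.0677), also not called. Itga10 had a called negative relation (r = -0.55, rho = -0.60) that was lost with Cbfb(het) 10 and 14 as 1 library (adjusted permutation p = 0.049 and 0.0502) and on log2(TPM + 1) (r = -0.44), and its r was -0.08 within the 13 tumors. Itgb6 had the other called negative relation with this list (r = -0.67, rho = -0.54). It was lost with Cbfb(het) 10 and 14 as 1 library (adjusted permutation p = 0.00928 and 0.112) and on log2(TPM + 1) (r = -0.59, rho = -0.44). Within the 13 tumors the r of Itgb6 was 0.31. Of the leukocyte genes Itga2b, Itga4, Itgal and Itgb7 had called positive relations with this list too.

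With the epithelial list the tumors fell into the 5 and the 13 described above, but the gap was under the 33.3% rule. Over all 18 tumors Itgb6 had the 1 called positive relation (r = 0.91, rho = 0.59, adjusted permutation p = 0.000238 and 0.0294). Called negative relations numbered 13: 7 mesenchymal, 5 widely expressed and 1 leukocyte gene, with r = -0.93 for Lamc1. With Cbfb(het) 10 and 14 as 1 library, Itgb6 and Lamc3 were lost and a negative relation of Itgb7 was gained. Itgb8 had r = 0.82 and rho = 0.39 over 18 tumors (adjusted permutation p = 0.00106 and 0.195), not called. On log2(TPM + 1) Itgb8 was called (r = 0.77, rho = 0.70), and within the 13 tumors its r was -0.49. The relations were also computed within the 13 tumors, a subset chosen after seeing the data. None of the 10 epithelial genes was called there: r was -0.59 for Lama3, -0.61 for Lamb3, -0.10 for Itgb4 over 12, -0.06 for Itga6, -0.60 for Lama5 and -0.14 for Itgb6. The 3 relations called within the 13 tumors were negative: Itgae (r = -0.83, rho = -0.82, adjusted permutation p = 0.02 and 0.0241), Itgb1 (r = -0.78, rho = -0.75) and Itgav (r = -0.74, rho = -0.75). Krt5, a basal keratin, was at 3516 and 3603 TPM in Cbfb(het) 10 and 14 and at 5352 TPM in the Cbfb(homo) tumor, the same tumors that led in Lama3 and Itgb4. Cbfb(het) 11 was close, at 3120 TPM of Krt5. Its Lama3 was at 81.5 TPM, but its Itgb4, at 57.0 TPM, was below that of Cbfb(het) 13 (79.6 TPM) and Cbfb(wt) 1 (67.7 TPM). Krt8, a luminal keratin, was at 14.3 and 16.2 TPM in Cbfb(het) 10 and 14 and at 1170 TPM in the Cbfb(homo) tumor. Krt5 did not stand for its whole list. The mean log2 CPM of 10 myoepithelial markers, Krt5 among them, was 6.51 and 6.54 in Cbfb(het) 10 and 14. It was 8.70 in the Cbfb(homo) tumor, 7.32 in Cbfb(het) 11, and 5.18 (Cbfb(wt) 3) to 7.51 (Cbfb(het) 4) in the other tumors.

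The labels' own contrast was Cbfb(het), n = 14, against Cbfb(wt), n = 3, tested with edgeR's quasi-likelihood test and Benjamini-Hochberg adjustment over all 18494 genes that passed the filter. No integrin or laminin gene was called at an adjusted p of 0.05 (0 of 37), beside 0% of all genes tested. At an unadjusted p under 0.05 the family had 0 of 37 and all genes 624, or 3.37%, and its smallest adjusted p was 0.999. The fitted difference was positive for 19 and negative for 18 members, with a median of 0.01 (all genes 0.03). The epithelial genes had a median of 0.45, with 9 of 10 positive, the leukocyte genes -0.04, the mesenchymal genes -0.06 and the widely expressed genes -0.09. Of 10 myoepithelial markers, 10 had a positive fitted change in the same contrast, with a median of 0.98, 0 called and 2 at an unadjusted p under 0.05. Their summed TPM was 1323 to 11575 in the Cbfb(het) and 1651 to 8576 in the Cbfb(wt) tumors, and their part in the values of the epithelial genes was not tested. These are counts of fitted signs, and the standard errors, from 0.23 to 1.27 with a median of 0.66, were larger than the fitted change in most members, with Itga4, Lamb3, Itga3, Itga11, Itgam and Lamc3 among the exceptions. The 2 groups overlapped for every member (0 without overlap, against 0.162% of all genes), and for 16 members the 3 Cbfb(wt) values lay inside the Cbfb(het) range.

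On the higher side in Cbfb(het), the members with the smallest p that are shown were Lamb3 and Itga3. Lamb3 was at 8.0 ± 1.5 log2 CPM (SD, n = 14) against 6.53 ± 2.14 (SD, n = 3). Its fitted log2 fold change was 1.41 ± 1.03 (SE; edgeR p = 0.187, adjusted 0.999). Itga3 was at 6.60 ± 0.80 against 6.12 ± 0.59 log2 CPM, 0.66 ± 0.54 (edgeR p = 0.242, adjusted 0.999). Both differences lay within the spread between tumors.

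On the lower side were Itga4, at 2.57 ± 0.97 against 3.07 ± 2.01 log2 CPM, -1.10 ± 0.66 (edgeR p = 0.115, adjusted 0.999), and Itgam, at 5.62 ± 0.93 against 6.05 ± 1.5 log2 CPM, -0.63 ± 0.61 (edgeR p = 0.316, adjusted 0.999). Lamc3 had a fitted change of -0.97 ± 0.96 (edgeR p = 0.328, adjusted 0.999), although its mean log2 CPM was higher in Cbfb(het) (0.94 ± 1.43) than in Cbfb(wt) (0.71 ± 2.93): 4.61 TPM in Cbfb(wt) 2 stood against 0.08 and 0.19 TPM in the other 2. All 3 signs turned positive without Cbfb(wt) 2, at 0.80 for Itga4, 0.51 for Itgam and 2.54 for Lamc3. Leaving out that tumor changed the sign of 23 of the 37 members and moved their median to 0.51. The windows shown for Itga4 and Itga3 thus belong to genes whose difference between the Cbfb labels did not pass the test.

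**Figure D5:**
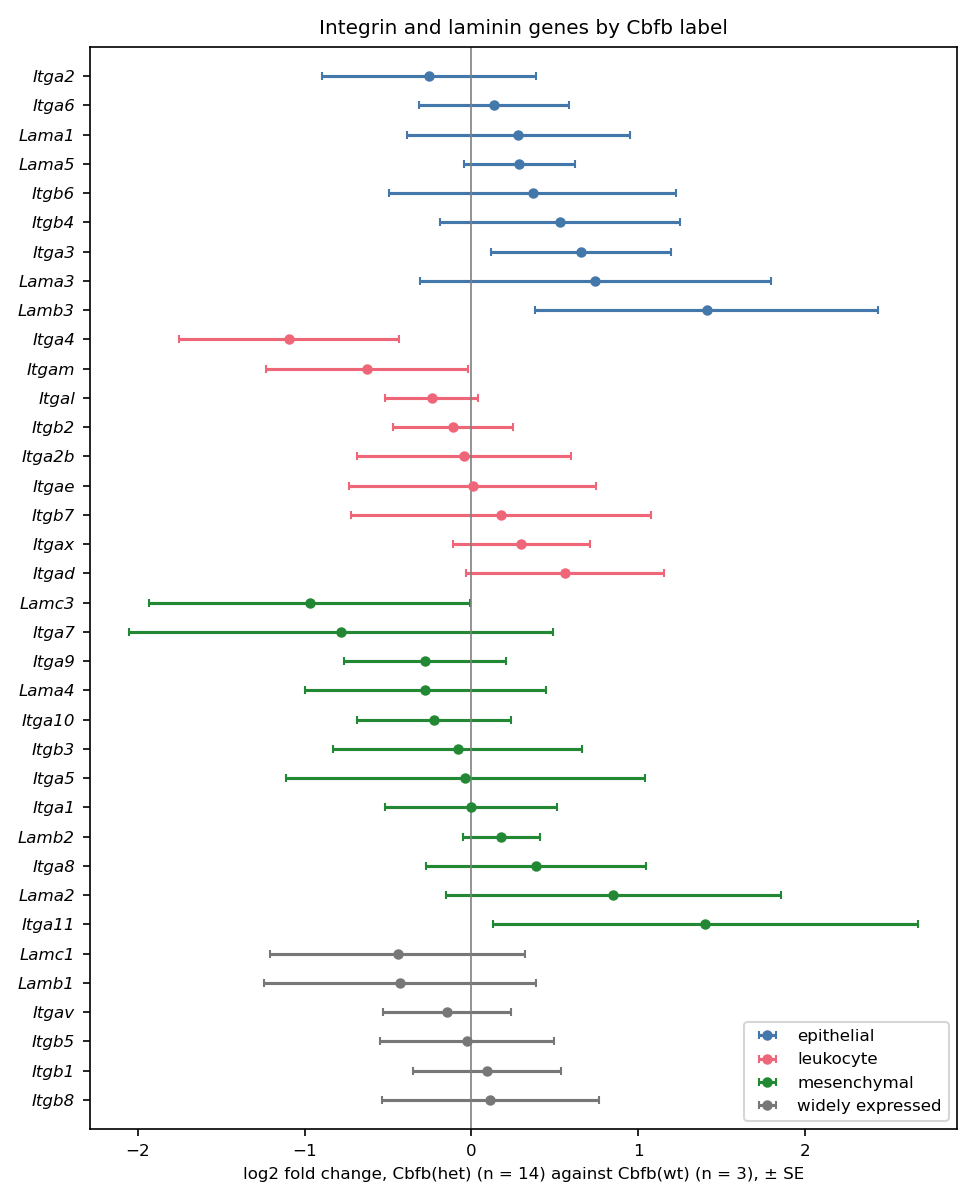
Fitted log2 fold change of integrin and laminin genes, Cbfb(het) (n = 14) against Cbfb(wt) (n = 3), with its standard error as bars, grouped and colored by class. The smallest adjusted p is 0.999, and most bars cross the line at 0.

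The single Cbfb(homo) tumor has no replicate, so its place among the tumors is a description. On log2 CPM it was above the other 17 tumors for 5 of the 37 genes and below them for 0, where 4.35% of all genes tested were above and 3.49% below. The 5 were Itga1 (6.16, the next tumor at 5.68), Itgb6 (5.71, next 5.18), Lama5 (8.06, next 7.83), Lamb2 (7.04, next 6.98) and Lamc3 (5.36, next 4.04). On TPM it was the highest for Itgb6, Lama5 and Lamc3, and it came next after Cbfb(het) 10 and 14 for Lama3 and Itgb4. Itga1 shares its locus with Pelo on the same strand, so part of its reads may belong to either gene. The summed TPM of 10 myoepithelial markers was 23851 in this tumor, above the Cbfb(het) and Cbfb(wt) ranges given above. That of 10 endothelial markers was 314, against 54.8 to 233 in the Cbfb(het) and 63.6 to 208 in the Cbfb(wt) tumors, so both lists were highest here. In both lists 0 of the 10 were listed at 0 in any tumor, and their part in these levels was not tested.

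Genes that work with integrins and laminins were read from the same fit, and the adjusted p of each one named here was 0.999 (edgeR). In a focal adhesion list (talin, vinculin, kinases and adaptors at the inner face of integrins) 0 of 32 genes were called, with 15 positive and 17 negative fitted changes and a median of -0.03. Parva, which links integrin-linked kinase to actin, had a log2 fold change of 0.23 ± 0.15 (SE), and Tns3, a tensin, -0.38 ± 0.33. Of 6 hemidesmosome genes 0 were called, 5 being positive, with Cd151, a tetraspanin partner of laminin-binding integrins, at 0.35 ± 0.18 and Plec, plectin, at -0.39 ± 0.61. Of 20 basement membrane genes 0 were called, 12 being positive, with a median of 0.12. There the smallest p belonged to the collagen IV chain Col4a6 at -1.37 ± 0.66, whose TPM was 21.3, 61.0 and 19.0 in the Cbfb(wt) tumors and 1.58 to 25.8 in the Cbfb(het) tumors, and on the higher side to Col4a4, which stayed at or below 1.02 TPM in both groups.

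Of 21 tested integrin ligands other than laminin (23 on the list) 0 were called, 15 being positive, with a median of 0.37. Vcam1, the counter-receptor of the alpha 4 integrins, had -0.84 ± 0.89 and was at 273 TPM in Cbfb(wt) 2, where Itga4 was highest as well. Ibsp, bone sialoprotein, had an unadjusted edgeR p of 0.0387 and an adjusted p of 0.999: it was at 0 to 0.02 TPM in the Cbfb(wt) tumors and from 0 to 111 TPM in the Cbfb(het) tumors, so no fold is given. The other marker lists had 0 called genes as well. Their smallest p in each direction were for Krt7 and Grhl2 (epithelial), Cd3e and Csf1r (leukocyte), Thy1 and Zeb1 (mesenchymal), Vwf and Kdr (endothelial), Myh11 (myoepithelial), Clec1b and Pf4 (platelet) and Myh4 (skeletal muscle). Csf1r, the macrophage growth factor receptor, was at 313 TPM in Cbfb(wt) 2 and at 28.6 and 41.4 TPM in the other Cbfb(wt) tumors, and the 15 leukocyte markers summed to 318 to 1891 TPM in the Cbfb(het) and 430.0 to 2145 TPM in the Cbfb(wt) tumors. Their part in the fitted changes of Itgam and Itga4 was not tested.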

How the data were processed

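RNA of 18 mouse mammary tumors was measured with the TruSeq stranded mRNA kit, per the labels' protocols. For every tumor a table was deposited that lists, by gene, RSEM's expected counts (estimated reads, not normalized) and TPM (scaled for gene length and library). The tools and build listed are STAR 2.7.0f, RSEM 1.3.1 and mm10, per the submitters' processing notes, and all 55450 gene IDs were found in GENCODE M21. The strand setting of the counting is not given in the sources used here, and 8 members overlap another protein-coding gene (Itga1, Itga10, Itga4, Itga7, Itgad, Itgae, Itgam and Lamb3), so reads shared with those genes make their levels uncertain.

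Expected counts were rounded to whole numbers (6.20% to 7.19% of values per tumor were not whole). The totals were 33210239 to 40974166. Counting error weighs more in members with few counts, such as Itgad (13 to 147 counts per tumor), Lamc3 (12 to 1740) and Itgae (21 to 369). Genes kept by edgeR's filterByExpr (18494) were fitted with TMM scaling and edgeR 4.0.16's robust quasi-likelihood test in R 4.3.3, 14 Cbfb(het) against 3 Cbfb(wt) tumors, with Benjamini-Hochberg adjustment over all genes. The Cbfb(homo) tumor, without a replicate, entered no test. Standard errors are the log2 fold change divided by the square root of F. Log2 CPM used a prior count of 2. Correlations and the exact test of Cbfb used scipy 1.17.1 and numpy 2.4.6. The scripts were tested on simulated data. DESeq2 1.42.0 and limma 3.58.1 (voom) were alternatives, beside no filter, an epithelial marker covariate, Cbfb(het) 10 and 14 as 1 library, all 18 tumors in the fit, other levels for detection, and each tumor left out.

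The members, their classes, the partner pairs and all gene lists were chosen with earlier results of these data known. Every member is named with its level. Full statistics go to the 3 members with the smallest p in each direction, values by tumor to the 10 highest by median TPM, the 10 with the largest SD, Lama3, Lamb3, Itga6, Itgb4 and the beta 2 integrins, and from each other list the gene with the smallest p in each direction is named. Of the members, 1 is counted in the totals but its own results are not reported here, and neither are those of 1 marker gene.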

Additional observations from a re-analysis of the deposited data

How the results depend on the processing

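The count of 0 members called between Cbfb(het) and Cbfb(wt) held in every fit tried, which used DESeq2, DESeq2 size factors, no filter, voom weights, all 18 tumors, the marker covariate, the 2 near-alike libraries as 1, and each of 17 tumors left out; the smallest adjusted p of a member in any of them was 0.797. The median log2 fold change of the members, 0.01, was 0.30 with the mean of the epithelial markers as a covariate and ran from -0.12 to 0.51 over the fits that left out 1 tumor, the extremes being Cbfb(wt) 3 and Cbfb(wt) 2. The signs of 1 to 23 members turned over those fits. Itga4 ran from -1.60 to 0.80, Itgam from -1.08 to 0.51 and Lamc3 from -1.53 to 2.54, all 3 positive without Cbfb(wt) 2 alone, while Lamb3 (0.88 to 2.40) and Itga3 (0.36 to 1.02) kept their sign in them. With the covariate Itga4 was 0.019, Itgam 0.004 and Lamc3 1.15. With voom quality weights Itga3 was -0.0501, Itga4 0.0827, Itgam 0.0172 and Lamc3 1.08. The cause of these turns was not tested. Called partner pairs numbered 19, 21 on log2(TPM + 1), 21 with no tumor removed for a gap, 7 in the Cbfb(het) tumors only, and 9 in the 13 tumors of higher epithelial markers, an alternative chosen after seeing the data. Called marker relations numbered 50, 45 on log2(TPM + 1), 51 with no tumor removed for a gap, 46 with the near-alike libraries as 1, 11 in the Cbfb(het) tumors and 11 in the 13 tumors; fewer tumors were used in both subsets. Members detected numbered 24 at 1 TPM in all tumors, 17 at 5 TPM and 37 at 10 counts. No paired analysis was possible because the labels give every tumor the same repeat number and the numbers used here only name tumors. With 3 Cbfb(wt) tumors, of which 1 stands apart, changes of the size of most standard errors (median 0.66 on the log2 scale) could not be called.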

Other observations

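Some family members lie side by side in the genome (GRCm38 coordinates, GENCODE M21) and were not alike across the tumors. The myeloid alpha subunits Itgam (chr7:128062640-128118491) and Itgax (chr7:128129547-128150657), both on the plus strand, stood at 69.7 and 5.92 TPM in Cbfb(wt) 2 and at 35.4 and 57.9 TPM in Cbfb(het) 13. The collagen receptor subunits Itga2 (chr13:114833081-114932100) and Itga1 (chr13:114953096-115101964), both on the minus strand, stood at 2.81 and 11.1 TPM in Cbfb(het) 12 and at 17.96 and 2.0 TPM in Cbfb(wt) 1. These neighbours were chosen after their values were seen, and no test was made of them.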
